A study of Bos indicus with 5 samples.

Results

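The genes of cholesterol synthesis, uptake and lipoprotein handling were examined in bovine ampulla, the part of the oviduct where fertilization takes place. Members were taken by symbol from a list of 33 genes, and 31 of them were matched among the 24616 genes of the table, of which 19971 carried a symbol. MSMO1 and SC5D did not match by symbol. The table has rows for SC4MOL and SC5DL, older names of these 2 genes, and their values are given beside the members, a match made after the values were seen.

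The samples were 5 ampulla libraries, each from a different multiparous Nelore cow (Bos indicus), 2 of the LF/LCL type (a large ovulatory follicle and then a large corpus luteum) and 3 of the SF/SCL type (both structures small). All cows were pre-synchronized with a prostaglandin F2α analog and a GnRH agonist, and later carried an intravaginal progesterone device (1 g) with an injection of 2 mg estradiol benzoate. LF/LCL cows also received prostaglandin when the device was inserted, and lost the device 42 h ahead of the ovulation-inducing GnRH dose, against 30 h ahead in SF/SCL cows. Every cow received prostaglandin at device removal and again some hours later. Tissue was collected on day 4. The sequenced cows were chosen by the study for the contrast in follicle, corpus luteum and steroid hormones, so that they are not a random draw from each group.

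Cells make cholesterol from acetyl-CoA through mevalonate, isoprenoids and squalene. The transcription factor SREBP-2, encoded by SREBF2, switches on the synthesis genes when sterols in the endoplasmic reticulum are low, and SCAP and the INSIG proteins carry that sterol signal. Surplus cholesterol is esterified by SOAT1, exported by ABC transporters under control of the liver X receptors, or carried in lipoproteins, which are known components of the fluid that bathes the oviduct lumen.

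Values are normalized reads, meaning the reads of a gene divided by a size factor of its library, so that a gene can be compared between libraries but levels of different genes cannot. The libraries held 13418278 to 19592174 reads on genes. A member had from 74 reads (PMVK in SF/SCL replicate 3) to 14802 reads (ABCG1) in a library, and the counting error of the lowest was 11.6%. All 31 members were among the 15815 genes tested. Fold changes are LF/LCL over SF/SCL on the log2(value + 1) scale, given with the standard error (SE) of the limma fit, and the adjusted p is the Benjamini-Hochberg value of limma over all genes tested. The tissue was the full wall, so that fewer cells of a type and less RNA per cell cannot be told apart. The secretory marker OVGP1 and the ciliated marker FOXJ1 were present in every library, at 117179 to 147247 and 8482 to 12698 normalized reads. The summed level of 10 smooth muscle markers was 63094 to 122040 in LF/LCL, against 15875 to 42128 in SF/SCL, and that of 12 ciliated cell markers was 50577 to 58326 and 72792 to 77031, in the opposite direction.

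LCAT, which esterifies cholesterol on lipoproteins, was the member whose groups stood clearest apart, 1.94-fold higher in LF/LCL by the ratio of means. LF/LCL replicate 2 held the highest value of 8 of 12 enzymes of cholesterol synthesis. PMVK and FDFT1 alone among the 12 were higher in both LF/LCL cows than in every SF/SCL cow. The transcription factor genes SREBF1 and SREBF2 hardly differed between cows. No member passed an adjusted p under 0.05 with limma, and the share of all genes tested that did was 0%. The adjusted p of the members ran from 0.178 to 0.99. An unadjusted limma p under 0.05 was reached by 4 of 31 members (12.9%), against 11.5% of all genes tested. LCAT, FDFT1 and ABCG1 were higher in LF/LCL, where the share of all genes was 5.64%, and PLTP was higher in SF/SCL, where it was 5.86%. With edgeR 0 members passed after adjustment, and 4 had an unadjusted p under 0.05, against 11.7% of all genes. With DESeq2 1 member passed after adjustment, LCAT, against 2.91% of all genes in either direction and 1.4% with LF/LCL higher, and 4 had an unadjusted p under 0.05, against 12.7%. The groups did not overlap for 5 of 31 members (16.1%), against 30.1% of all genes. These were PMVK, FDFT1 and LCAT with LF/LCL higher, against 15.0% of all genes, and PLTP and SOAT1 with SF/SCL higher, against 15.1%. The share of members called thus lay near the background, and the share without overlap was below it, a difference for which no test was made.

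**Figure D1:**
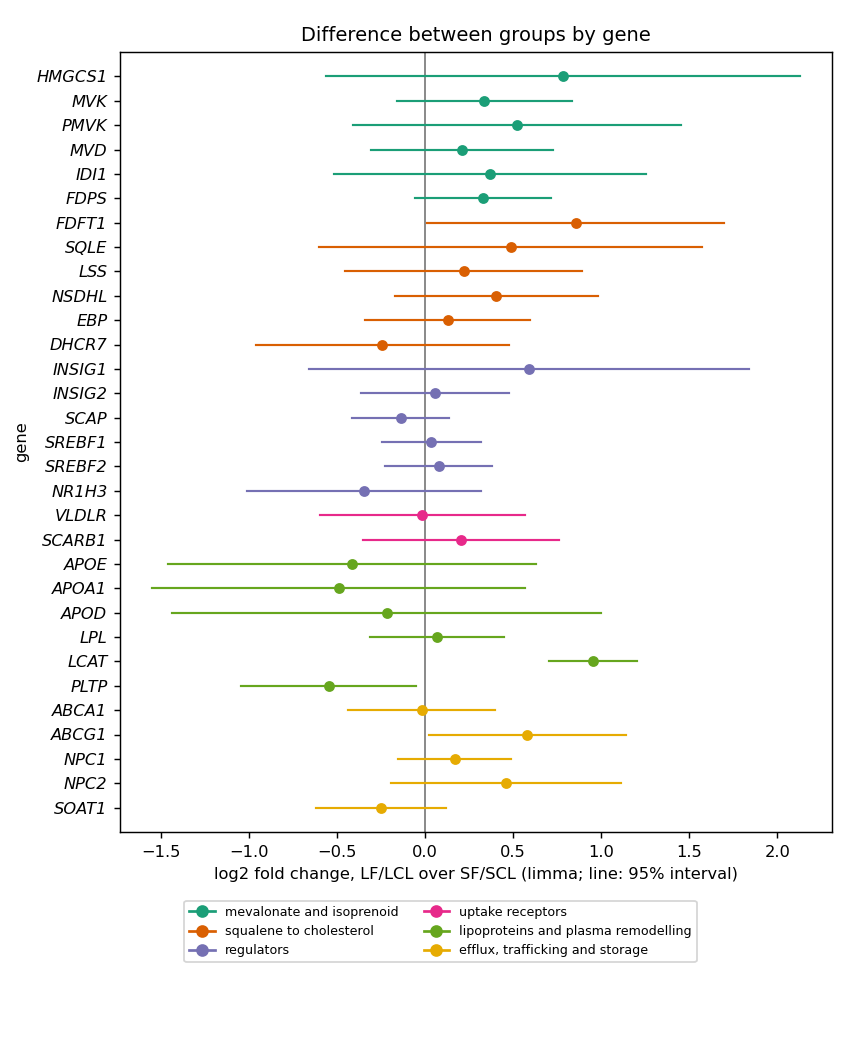
Log2 fold change (x axis, LF/LCL over SF/SCL) of each of the 31 members (y axis) with the 95% interval of the limma fit as a line, coloured by role. LCAT stands at 0.96 with an interval from 0.71 to 1.21, the intervals of FDFT1, ABCG1 and PLTP end close to 0, and those of the other members include 0.

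The synthesis enzymes were described in 2 steps, up to farnesyl pyrophosphate and from there to cholesterol. HMGCS1 (ENSBTAG00000011839), which makes HMG-CoA, a precursor of mevalonate, had 1570.3 and 4902 normalized reads in LF/LCL, against 1887, 2149 and 1032 in SF/SCL, here and in all later values in the order of the replicate numbers. A single library, LF/LCL replicate 2, stood high, while the other LF/LCL library lay inside the SF/SCL range. The log2 fold change of HMGCS1 was 0.78 ± 0.54 (SE), with a limma adjusted p of 0.64. Across the 5 libraries HMGCS1 spanned 4.75-fold, and 9.15% of all genes tested had a span as wide or wider.

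PMVK (ENSBTAG00000017819), a kinase that phosphorylates mevalonate phosphate, had 193.5 and 189.7 normalized reads in LF/LCL, against 170.5, 174.1 and 79.4 in SF/SCL. The LF/LCL cows lay above all SF/SCL cows by a small margin, and SF/SCL replicate 3 alone was far below the rest. The log2 fold change of PMVK was 0.52 ± 0.38 (SE). MVK, the kinase before it, averaged 710.6 ± 141.2 normalized reads (SD, n = 2) in LF/LCL, against 562.9 ± 109.0 (SD, n = 3) in SF/SCL. MVD, which decarboxylates mevalonate pyrophosphate, averaged 472.4 ± 142.3 and 400.3 ± 34.5. The groups overlapped for both genes, with log2 fold changes of 0.338 ± 0.205 for MVK and 0.208 ± 0.212 for MVD (SE). IDI1, the isomerase that gives dimethylallyl pyrophosphate, averaged 944.1 ± 537.4 against 672.9 ± 91.3, and 1324 of LF/LCL replicate 2 set against 564.1 of LF/LCL replicate 1 made up the wide SD. FDPS, which joins these units to farnesyl pyrophosphate, averaged 1034 ± 193.8 against 817.3 ± 82.2, with a log2 fold change of 0.33 ± 0.16 (SE). All 6 genes of this step had a positive log2 fold change, with a median of 0.35 against 0.01 over all genes tested, and none had a limma p under 0.05.

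FDFT1 (ENSBTAG00000012432), squalene synthase, which commits farnesyl pyrophosphate to sterols, had 2561 and 4333 normalized reads in LF/LCL, against 2349, 2106 and 1259.9 in SF/SCL. There was no overlap, but LF/LCL replicate 1 exceeded SF/SCL replicate 1 only slightly. Its log2 fold change was 0.86 ± 0.34 (SE), with a limma p of 0.0474 before and 0.427 after adjustment, and with a library left out the unadjusted limma p ranged from 0.0207 to 0.255. SQLE, squalene epoxidase, a rate-limiting enzyme of the later steps, had 940.6 and 2490 normalized reads in LF/LCL, against 1212, 1326 and 808.1 in SF/SCL. As for HMGCS1, LF/LCL replicate 2 alone was high and LF/LCL replicate 1 was inside the SF/SCL range. The log2 fold change of SQLE was 0.49 ± 0.44 (SE).

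LSS, which closes squalene epoxide to lanosterol, averaged 1050.1 ± 445.1 in LF/LCL, against 865.2 ± 116.4 in SF/SCL. NSDHL, which takes part in removing the methyl groups at carbon 4 of the sterol, averaged 1011 ± 328.2 and 748.3 ± 114.6. EBP, the sterol isomerase, averaged 581.4 ± 44.3 and 537.8 ± 112.7. For these 3 genes the difference was smaller than the SD of at least 1 group. DHCR7, which catalyses the last reduction to cholesterol, was the exception in sign among the synthesis members, at 1295 ± 340.0 in LF/LCL, against 1556 ± 511.9 in SF/SCL, which gave a log2 fold change of -0.24. Of the genes under older names, SC4MOL, the sterol C4 methyl oxidase, had 4219 and 6790.0 normalized reads in LF/LCL, against 4092, 4636 and 2984 in SF/SCL. SC5DL, the C5 desaturase, had 1744 and 2550.5 in LF/LCL, against 1964, 1789.8 and 1355 in SF/SCL. Both were highest in LF/LCL replicate 2 and lowest in SF/SCL replicate 3, and the groups overlapped for both genes.

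The synthesis members shared much of the order of the libraries. LF/LCL replicate 2 held the highest value of 8 of 12 synthesis members (66.7%), against 20.9% of all genes tested, and SF/SCL replicate 3 held the lowest value of 8 of 12, against 24.3%. Both were true of 5 of 12 members (41.7%), namely HMGCS1, MVD, FDFT1, SQLE and NSDHL, against 8.38% of all genes. In LF/LCL replicate 2 over LF/LCL replicate 1 the median ratio of the 12 members was 1.57, and 10 of 12 were higher in replicate 2, against 49.9% of all genes. SF/SCL replicate 3 lay below both other SF/SCL libraries for 10 of 12, against 36.2% of all genes. HMGCS1, MVD, SQLE and NSDHL, together with the regulator INSIG1, shared the whole order of the 5 libraries, LF/LCL replicate 2, SF/SCL replicates 2 and 1, LF/LCL replicate 1 and SF/SCL replicate 3 from high to low. That order was shared by 5 of 31 members (16.1%) and by 1.21% of all genes, and the comparison was chosen after the values were seen. LF/LCL replicate 2 exceeded each of the other libraries at least 1.5-fold for HMGCS1, IDI1, FDFT1, SQLE, NSDHL and INSIG1, 6 of 31 members, against 3.07% of all genes. These counts describe which cow was high, with no test, as members that vary together are not replicates.

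**Figure D2:**
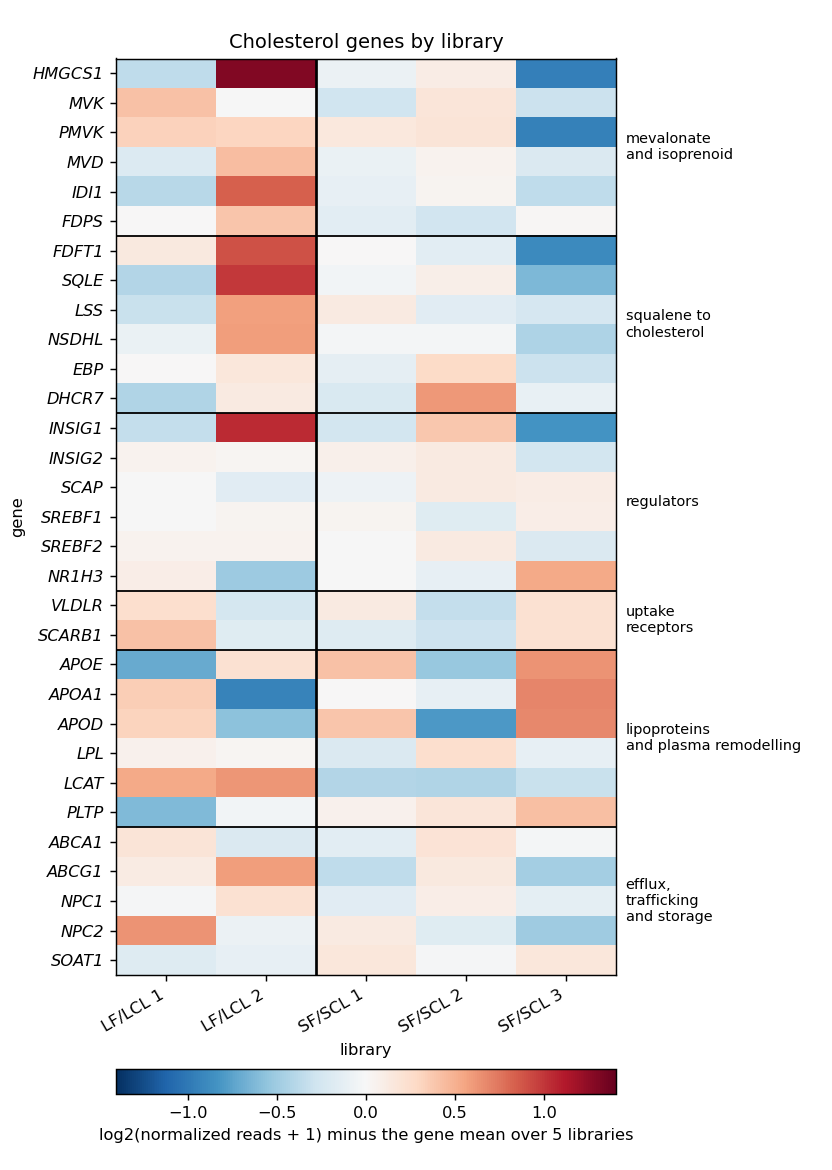
Log2 value of each member in each of the 5 libraries relative to the mean of that gene over the libraries (colour), with the genes ordered by role. The synthesis genes at the top are mostly red in LF/LCL replicate 2 and blue in SF/SCL replicate 3, while SREBF1 and SREBF2 are pale in every library.

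The direction of the synthesis genes between groups therefore rested on LF/LCL replicate 2. With all libraries 11 of 12 synthesis members had a positive log2 fold change, with a median of 0.35. Without LF/LCL replicate 2 the count was 6 positive and 6 negative, the median was 0.01, and 0 had a limma p under 0.05. Without LF/LCL replicate 1 all 12 were positive with a median of 0.59, and 8 of 12 (66.7%) had an unadjusted limma p under 0.05, against 7.8% of all genes. In these fits the single LF/LCL cow left was assumed to vary like the SF/SCL cows. Without SF/SCL replicate 3 the count was 11 positive and 1 negative with a median of 0.26. The summed level of 10 macrophage markers was 2636 and 7127 in LF/LCL, against 4815, 2235 and 4190 in SF/SCL. That sum too was highest in LF/LCL replicate 2, as were C1QA, C1QB, C1QC, CSF1R, AIF1, CD86 and TYROBP. The macrophage markers CD68, CD163 and CD14 were highest in SF/SCL replicate 3 instead. The smooth muscle sum was lowest in SF/SCL replicate 3, at 15875. It was highest in LF/LCL replicate 1, at 122040, against 63094 in LF/LCL replicate 2, unlike most synthesis genes. The part of these cell types in the order of the synthesis genes was not tested.

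**Figure D3:**
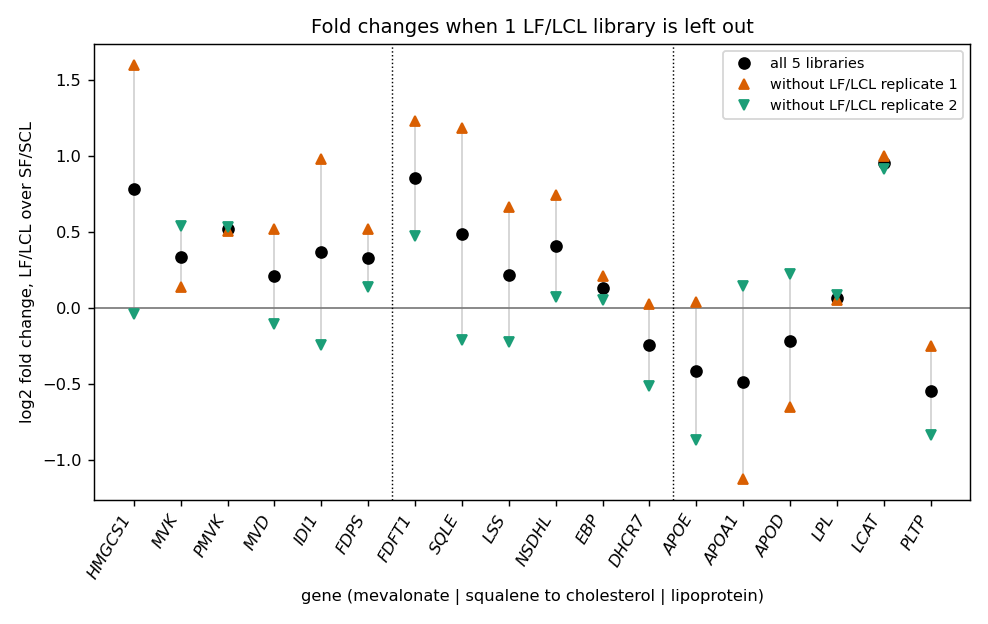
Log2 fold change (y axis, LF/LCL over SF/SCL) of the 12 synthesis members and the 6 lipoprotein members (x axis) with all 5 libraries (circles), without LF/LCL replicate 1 (triangles pointing up) and without LF/LCL replicate 2 (triangles pointing down). SQLE moves between 1.19 and -0.21 while LCAT stays between 0.91 and 1.00.

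Among the regulators, SREBF2 had 4386 and 4370.2 normalized reads in LF/LCL, against 4212, 4610.1 and 3669 in SF/SCL. The 5 cows lay close together and the groups overlapped, with a log2 fold change of 0.08 ± 0.13 (SE) and a span of 1.26-fold, so that the transcript of the factor itself did not show the spread of its known targets. SREBF1, whose products drive fatty acid genes more than sterol genes, averaged 2539 ± 53.9 in LF/LCL, against 2485 ± 237.3 in SF/SCL and spanned 1.21-fold. SCAP, the escort protein of the SREBPs, averaged 1414 ± 108.1 and 1557 ± 113.0 and spanned 1.22-fold. These spans compare with a median of 1.55 over all genes tested and 2.02 over the synthesis members.

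INSIG1, which holds SCAP in the endoplasmic reticulum and is itself a known SREBP target, had 465.6 and 1206 normalized reads in LF/LCL, against 490.7, 764.0 and 327.3 in SF/SCL. It followed the synthesis enzymes, high in LF/LCL replicate 2 and low in SF/SCL replicate 3, and its log2 fold change was 0.59 ± 0.51 (SE). INSIG2, its paralog, averaged 321.6 ± 3.02 in LF/LCL, against 310.8 ± 42.9 in SF/SCL, without that spread. NR1H3, the liver X receptor α, averaged 292.1 ± 84.5 and 370.9 ± 94.0. It ran the other way, lowest in LF/LCL replicate 2 and highest in SF/SCL replicate 3, a difference of 2.06-fold between these libraries, and its log2 fold change was -0.35 ± 0.27 (SE).

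Of the receptors that take up lipoprotein cholesterol, SCARB1, the high-density lipoprotein receptor SR-B1, had 988.6 and 662.1 normalized reads in LF/LCL, against 657.1, 607.0 and 863.9 in SF/SCL. VLDLR, which binds apolipoprotein E, had 360.0 and 258.4 in LF/LCL, against 335.8, 244.0 and 356.3 in SF/SCL. For both receptors LF/LCL replicate 1 was highest, SF/SCL replicate 3 came next and SF/SCL replicate 2 was lowest, so that each group held high and low cows. Their log2 fold changes were 0.21 ± 0.23 and -0.01 ± 0.24 (SE).

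The clearest separation of the groups among the members was in LCAT (ENSBTAG00000018043), lecithin-cholesterol acyltransferase, which esterifies cholesterol on high-density lipoprotein particles. LCAT had 1424 and 1512 normalized reads in LF/LCL, against 739.2, 735.2 and 794.2 in SF/SCL. The LF/LCL cows differed from each other by 1.06-fold and the SF/SCL cows by at most 1.08-fold, with a wide gap between the groups. The means were 1468 ± 62.3 (SD, n = 2) and 756.2 ± 32.9 (SD, n = 3), a ratio of 1.94. The log2 fold change was 0.96 ± 0.10 (SE), with a limma p of 7.63e-05, which ranked 4 among 15815 genes, and an adjusted p of 0.178. The edgeR adjusted p was 0.204 and the DESeq2 adjusted p was 1.61e-09, so that the call depended on the tool while the size did not. With each library left out in turn the log2 fold change stayed between 0.91 and 1.00 and the unadjusted limma p between 0.000227 and 0.00126. LCAT stood in a list of genes that the study chose on these libraries, so that its direction here is not independent evidence. The summed smooth muscle markers were also higher in both LF/LCL libraries and the summed ciliated markers lower. The part of these cell types in the LCAT difference was not tested.

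PLTP (ENSBTAG00000000559), the phospholipid transfer protein, which remodels the same particles, ran in the opposite direction. It had 4618 and 6939 normalized reads in LF/LCL, against 7393, 8004 and 9546 in SF/SCL. There was no overlap, but LF/LCL replicate 2 was closer to SF/SCL replicate 1 than to LF/LCL replicate 1. The log2 fold change of PLTP was -0.55 ± 0.20 (SE), with a limma p of 0.0357 before and 0.402 after adjustment, and with a library left out the unadjusted limma p ranged from 0.00559 to 0.226. PLTP was lowest in LF/LCL replicate 1, where the smooth muscle sum was highest, and highest in SF/SCL replicate 3, where that sum was lowest. The summed ciliated markers ran with PLTP between the groups, at 50577 and 58326 in LF/LCL, against 72792, 77031 and 73098 in SF/SCL. The part of these cell types in the PLTP result was not tested.

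**Figure D4:**
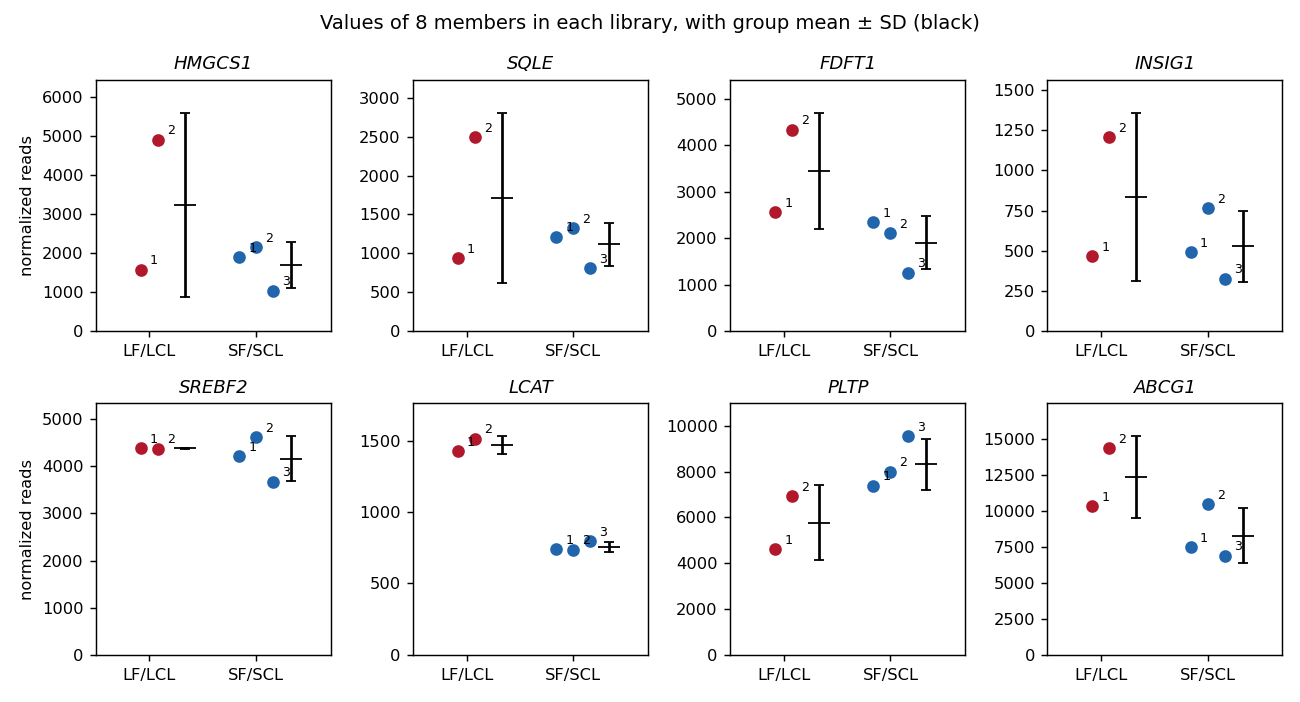
Normalized reads of 8 members in each library (points, numbered by replicate) with group mean and SD (black), each panel on its own linear axis from 0. LCAT forms 2 tight groups, HMGCS1, SQLE and INSIG1 have LF/LCL replicate 2 far above LF/LCL replicate 1, and SREBF2 lies between 3669 and 4610.1 in all cows.

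The apolipoprotein genes varied widely within the groups. APOE, a lipoprotein component that macrophages secrete in quantity, had 1113 and 2098.5 normalized reads in LF/LCL, against 2412, 1254 and 2799.9 in SF/SCL. SF/SCL replicate 2 and LF/LCL replicate 1 were low and the other 3 cows high. Those 3 cows also had the higher macrophage sum, but the macrophage marker CD14 was lowest in LF/LCL replicate 2, at 97.8. The mesothelial marker sum followed the APOE order, from 9299 in LF/LCL replicate 1 to 20519 in SF/SCL replicate 3. The part of these cells in the APOE values was not tested. APOA1, the main protein of high-density lipoprotein, had 467.9 and 192.6 in LF/LCL, against 371.2, 341.2 and 594.5 in SF/SCL. Here LF/LCL replicate 2 was lowest and SF/SCL replicate 3 highest, 3.09-fold apart, which is the reverse of the synthesis genes. APOD, a lipocalin that carries small hydrophobic molecules, averaged 2557 ± 1068 in LF/LCL, against 3099 ± 1413 in SF/SCL. The log2 fold changes of APOE, APOA1 and APOD were -0.42 ± 0.42, -0.49 ± 0.43 and -0.22 ± 0.49 (SE), and the groups overlapped for each gene. LPL, lipoprotein lipase, which frees fatty acids from triglyceride-rich particles, had 832.7 and 815.0 in LF/LCL, against 697.6, 943.5 and 737.3 in SF/SCL. Its LF/LCL values fell within the SF/SCL range. SF/SCL replicate 3 held the highest value of 4 of the 6 lipoprotein genes, APOE, APOA1, APOD and PLTP, against 23.7% of all genes tested.

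Among the genes of efflux and storage, ABCG1 (ENSBTAG00000021272), which exports cholesterol to mature high-density lipoprotein, had 10312 and 14327 normalized reads in LF/LCL, against 7454, 10459 and 6886 in SF/SCL. SF/SCL replicate 2 slightly exceeded LF/LCL replicate 1, so that the groups overlapped. Its log2 fold change was 0.58 ± 0.23 (SE), with a limma p of 0.0442 before and 0.42 after adjustment, and the unadjusted limma p ranged from 0.00862 to 0.246 with a library left out. ABCA1, which loads cholesterol onto lipid-poor apolipoprotein A-I, had 701.3 and 534.3 in LF/LCL, against 557.3, 704.1 and 607.4 in SF/SCL. The ABCA1 values overlapped throughout, with a log2 fold change of -0.02 ± 0.17 (SE). Both transporter genes are known liver X receptor targets, and the difference between their fold changes was not tested.

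SOAT1 (ENSBTAG00000004059), which esterifies cholesterol for storage, had 253.3 and 264.2 normalized reads in LF/LCL, against 321.3, 282.9 and 320.9 in SF/SCL. All SF/SCL cows lay above the LF/LCL cows by a narrow margin, with a log2 fold change of -0.25 ± 0.15 (SE) and a limma p of 0.15. NPC2, the soluble protein that passes cholesterol out of the lysosome and is also secreted, had 6451 and 3946 in LF/LCL, against 4535, 3699 and 2941 in SF/SCL. LF/LCL replicate 1 was highest, LF/LCL replicate 2 lay inside the SF/SCL range, and SF/SCL replicate 3 was lowest. NPC1, its membrane partner, averaged 1669 ± 191.1 in LF/LCL, against 1486 ± 148.0 in SF/SCL.

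A wider list of 79 further genes of the pathway was read in the same fit. Of these, 72 symbols were found, with 74 entries because 2 symbols had 2 entries each, and 62 entries were tested. An entry under ANGPTL4 (ENSBTAG00000021811) has the Ensembl ID that the study gives for ANGPT4, so that its place in this list is uncertain. An unadjusted limma p under 0.05 was reached by 9 of 62 (against the 11.5% of all genes), with the higher values in LF/LCL for 7 and in SF/SCL for 2 (shares of all genes 5.64% and 5.86%), and 0 passed after adjustment with limma or edgeR. With DESeq2 4 of 62 passed, against 2.91% of all genes. CLU, SAA3 and CAV1 were higher in LF/LCL, a call made for 1.4% of all genes, and NCEH1 was higher in SF/SCL. Those 4 genes were, like LCAT, in a list that the study chose on these libraries.

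CLU, clusterin or apolipoprotein J, had 39324 and 34779.6 normalized reads in LF/LCL, against 22614, 24506 and 23707 in SF/SCL. The groups were well apart, with a log2 fold change of 0.65 ± 0.11 (SE), a limma p of 0.00108 and an adjusted p of 0.197. SAA3, an acute phase apolipoprotein of high-density lipoprotein, had 18764 and 15534 in LF/LCL, against 10763, 6398 and 10158 in SF/SCL. Both LF/LCL cows lay above all SF/SCL cows, and the log2 fold change was 0.94 ± 0.25 (SE).

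NCEH1, which hydrolyses cholesterol esters, had 267.4 and 301.0 in LF/LCL, against 530.2, 434.4 and 454.0 in SF/SCL, which gave a log2 fold change of -0.73 ± 0.15 (SE). LRP2, megalin, an endocytic receptor of epithelia that takes up clusterin and lipoproteins, had 218.1 and 371.7 in LF/LCL, against 600.9, 636.5 and 432.5 in SF/SCL, for a log2 fold change of -0.94 ± 0.28 (SE). For both genes every SF/SCL cow was higher. OSBPL8, an oxysterol-binding protein homolog of membrane contact sites, had 1021.5 and 1153 in LF/LCL, against 870.2, 750.7 and 630.0 in SF/SCL, and both LF/LCL cows lay above all SF/SCL cows. CAV1, the coat protein of the cholesterol-rich caveolae and abundant in smooth muscle, had 6906.5 and 5549 in LF/LCL, against 3107, 3354 and 1936 in SF/SCL. CAV1 took the same order over the 5 cows as the summed smooth muscle markers, whose part in its difference was not tested.

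The 8 further synthesis genes of that list showed a similar order of the libraries. All 8 had a positive log2 fold change, 6 were highest in LF/LCL replicate 2, 6 were lowest in SF/SCL replicate 3, and 5 were both. CYP51A1, the lanosterol demethylase, which was named after its values were seen, had 872.5 and 2488 in LF/LCL, against 1227, 1103 and 733.0 in SF/SCL. For CYP51A1 LF/LCL replicate 2 was highest, SF/SCL replicate 3 was lowest, and LF/LCL replicate 1 lay within the SF/SCL range.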

How the data were processed

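RNA of 5 ampulla libraries was sequenced by the authors, and the submitters' processing notes name CASAVA 1.8.2, TopHat2 2.0.8, Bowtie2 2.1.0, SAMtools 0.1.18, HTSeq 0.5.4p2 and DESeq 1.12.1. The deposited values are a normalized signal, the authors' read count of each Ensembl gene divided by a size factor of the library, and the use of strand is not given in the sources used here. Every value was a whole number of reads after division by the step of its library (100% of values, tolerance 0.05), and the recovered reads served edgeR and DESeq2. The LF/LCL libraries total 13418278 and 16171541 reads, the SF/SCL libraries 14785598, 19592174 and 14277845, and these totals limit the precision of low genes by counting error only. Only uniquely placed reads were counted, so that near-identical or overlapping genes are uncertain.

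The main test was limma 3.58.1 (R 4.3.3) on log2(value + 1), trend and robust, two-sided, over 15815 genes with a mean value over 5, adjusted by Benjamini-Hochberg with a threshold of 0.05. Fold changes understate the change of low genes. Alternatives were edgeR 4.0.16 and DESeq2 1.42.0 on recovered reads, pseudocounts of 0.5 and 5, TMM scaling, other filters and leaving out each library. The fits were tested on simulated data with the same spread set for every gene, unlike these cows, whose spread differed between genes. P-values set the difference between groups against the spread between these cows within the groups. No batch was given in the labels, and no covariate was used. The members and lists were chosen with earlier results of these data known. Values per library are given for members whose groups did not overlap or with an unadjusted p under 0.05, for 11 members chosen by role, and for the 6 further pathway genes with the smallest p. CYP51A1 was named outside this rule, after its values were seen. Markers of 13 cell types or states were summed per library.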

Additional observations from a re-analysis of the deposited data

How the results depend on the processing

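With 2 and 3 cows, 1 library decides many values, and a fit without an LF/LCL library assumes that the cow left varies like the others. No paired analysis was possible because each library came from a different cow, and the replicate numbers match no cows between the groups. The sign of 14 of 31 members was the same in every fit, and under the 7 settings that keep all libraries 0 members changed sign. The count of members with an adjusted p under 0.05 was 1 with DESeq2, LCAT at a log2 fold change of 0.96, and 0 with edgeR, the other filters, pseudocounts and scaling. The cause was not tested.

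Leaving out each library in turn gave 1 to 12 members with an unadjusted limma p under 0.05 (1 to 11 higher in LF/LCL), 12 of them without LF/LCL replicate 1 (7.8% of all genes), 3 without LF/LCL replicate 2 (9.87%) and 1 without SF/SCL replicate 3 (9.47%). The groups did not overlap for 7 to 19 members, 19 (61.3%) without LF/LCL replicate 1 against 56.9% of all genes, 13 (41.9%) without LF/LCL replicate 2 against 57.1%, 7 (22.6%) without SF/SCL replicate 1 against 42.0%, 13 (41.9%) without SF/SCL replicate 2 against 43.0% and 8 (25.8%) without SF/SCL replicate 3 against 41.2%. The median log2 fold change was 0.07 to 0.20 over the members, 0.051 to 0.52 for mevalonate genes, -0.081 to 0.70 for squalene to cholesterol, -0.035 to 0.075 for regulators, -0.17 to 0.36 for uptake receptors, -0.61 to 0.12 for lipoproteins and 0.11 to 0.25 for efflux and storage. Signs turned for HMGCS1 (-0.038 to 1.60), MVD (-0.10 to 0.52), IDI1 (-0.25 to 0.99), SQLE (-0.21 to 1.19), LSS (-0.23 to 0.67), DHCR7 (-0.51 to 0.028), INSIG1 (-0.094 to 1.28), INSIG2 (-0.06 to 0.13), SREBF1 (-0.044 to 0.09), SREBF2 (-0.009 to 0.16), VLDLR (-0.25 to 0.23), SCARB1 (-0.082 to 0.50), APOE (-0.87 to 0.042), APOA1 (-1.13 to 0.15), APOD (-0.66 to 0.22), LPL (-0.018 to 0.20) and ABCA1 (-0.21 to 0.18). With all libraries 9 of 62 entries of further pathway genes had an unadjusted limma p under 0.05, against 11.5% of all genes. That count too changed with the library left out.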
